A study of Ictidomys tridecemlineatus with 10 samples.

Results

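Rbm3 and Cirbp, 2 of the 25964 genes in the deposited table, were selected by their symbols and followed in messenger RNA of the subfornical organ of the thirteen-lined ground squirrel, a hibernating rodent. Both were among the 15445 genes tested, which had at least 1 CPM (normalised read counts per 1000000 reads) on average over all libraries. This organ lies in the roof of the third ventricle, has leaky vessels, and holds neurons that respond to plasma osmolality and angiotensin and promote drinking. The libraries came from 5 animals in interbout arousal (IBA), when a hibernating animal leaves torpor for a time and regains its normal body temperature, and from 5 Active animals, which were not hibernating. No genotype, drug, age or sex was given for either state in the sources used here, and both states were dissected by hand from brain slices. Body temperature at sampling and the time since rewarming were likewise not given.

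RBM3 and CIRBP are small RNA-binding proteins with an RNA recognition motif followed by a glycine-rich tail. In cultured mammalian cells their transcripts and proteins rise when the temperature is lowered by a few degrees. RBM3 is known in mice for preserving synapses after cooling, and CIRBP for following the daily rhythm of body temperature and binding clock transcripts. CIRBP released from cells acts on innate immune receptors in mice.

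Both transcripts were higher in IBA than in Active subfornical organ. Rbm3 averaged 78.2 ± 22.2 CPM in IBA and 28.6 ± 7.64 CPM in Active libraries, and Cirbp averaged 311.9 ± 49.1 CPM in IBA and 193.1 ± 20.1 CPM in Active libraries (SD, n = 5 each). The rise was thus 2.69-fold for Rbm3 and 1.60-fold for Cirbp on the scale of log2(CPM + 0.5). No IBA library overlapped an Active library for either gene. CPM is not corrected for transcript length, so the levels of the 2 genes are not compared with each other here.

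Rbm3 was at 76.6, 99.1, 49.2, 101 and 65.0 CPM in IBA replicates 1 to 5, against 31.5, 25.1, 30.1, 38.4 and 17.9 CPM in Active replicates 1 to 5. IBA replicates 2 and 4 were the highest and IBA replicate 3 the lowest of its state, yet that lowest value was 1.28 times the highest Active value, in replicate 4. The log2 difference was 1.43 (SE 0.23, 95% interval 0.94 to 1.92, limma adjusted p = 0.0347), which is a fold of 1.91 to 3.78. Ranked by log2 difference from the highest, it was 17 among all genes tested and 2 among the 34 genes called higher in IBA.

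Cirbp was at 300.5, 298, 250.4, 385 and 325 CPM in IBA replicates 1 to 5, against 202, 195, 173, 221 and 174 CPM in Active replicates 1 to 5. IBA replicate 4 was again the highest and IBA replicate 3 again the lowest of its state. The lowest IBA value was 1.13 times the highest Active value, which was once more that of Active replicate 4. The log2 difference was 0.68 (SE 0.12, 95% interval 0.42 to 0.94, limma adjusted p = 0.0378), a fold of 1.34 to 1.92. In the same ranking it was 320 among all genes tested and 26 among the 34 called rises.

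Few genes reached this threshold, an adjusted p under 0.05 over all genes tested. The share called was 0.401%, with 0.22% higher in IBA, and 54.8% of the calls were higher, against 36.8% after scaling every library to the same total. By comparison, 3.59% of genes had every IBA library above every Active library. The rank by p was 13 for Rbm3 and 37 for Cirbp. A further 1133 genes lay between an adjusted p of 0.05 and 0.1.

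**Figure D1:**
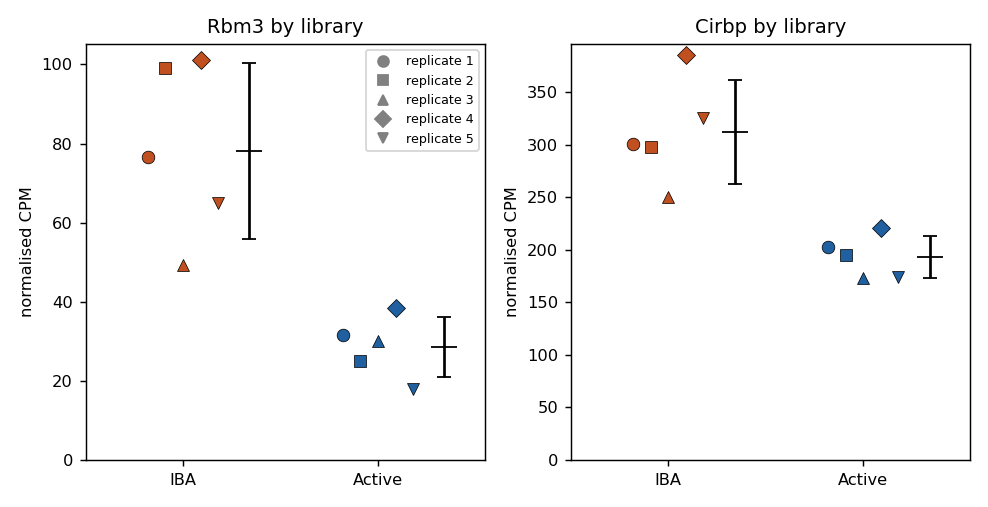
Normalised CPM of Rbm3 (left) and Cirbp (right) in each library, IBA beside Active, with marker shapes for replicate numbers and black bars for the mean ± SD of 5 libraries. All IBA points lie above all Active points, from 49.2 CPM for Rbm3 and from 250.4 CPM for Cirbp, while the Active points reach 38.4 and 221 CPM.

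The spread between libraries was larger than the counting error for both genes. The recovered totals of 24195342 to 35382203 reads per IBA library and 20993093 to 30713168 per Active library gave Rbm3 1561 to 2606 reads in IBA and 579 to 886 in Active libraries. Cirbp had 7466 to 10225 reads in IBA and 4829 to 5688 in Active libraries. The counting error of a single value was therefore at most 4.16% for Rbm3 and 1.44% for Cirbp. The coefficient of variation between libraries was 28.4% in IBA and 26.7% in Active for Rbm3, and 15.7% in IBA and 10.4% in Active for Cirbp. The within-state SD on the log2 scale was 0.42 for Rbm3, above that of 82.5% of genes tested, and 0.19 for Cirbp, above that of 28.3%. Among genes within 2-fold of its mean CPM it was above that of 91.9% for Rbm3 and of 47.4% for Cirbp.

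The 2 differences were not of the same size. The log2 ratio of Rbm3 to Cirbp within a library, which does not depend on how the library was scaled apart from the pseudocount, was -2.02 ± 0.31 in IBA and -2.77 ± 0.32 in Active (SD, n = 5 each). In IBA replicates 1 to 5 it was -1.97, -1.58, -2.34, -1.93 and -2.31, against -2.66, -2.93, -2.50, -2.51 and -3.25 in Active replicates 1 to 5. The IBA and Active ratios did not overlap. Rbm3 was 1.68-fold higher relative to Cirbp in IBA (log2 difference 0.75, two-sided exact permutation p = 0.00794, the smallest that 5 against 5 libraries can give).

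Within a state, the libraries high in one gene tended to be high in the other, but this did not pass after adjustment. Over the deviations of the 10 libraries from their state means, Pearson's r was 0.71 (exact permutation p = 0.0349 over 14400 pairings within states). Spearman's rho was 0.59 (exact permutation p = 0.1003). Adjusted over these 2 coefficients, the exact permutation p of r was 0.0699. Without Active replicate 5 and IBA replicate 3, the libraries farthest from their state means in Rbm3, r was 0.42. After scaling to equal totals r was 0.69 (exact permutation p = 0.0415, adjusted p = 0.0585) and rho 0.66 (exact permutation p = 0.0585). There r was 0.50 without the same 2 libraries.

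**Figure D2:**
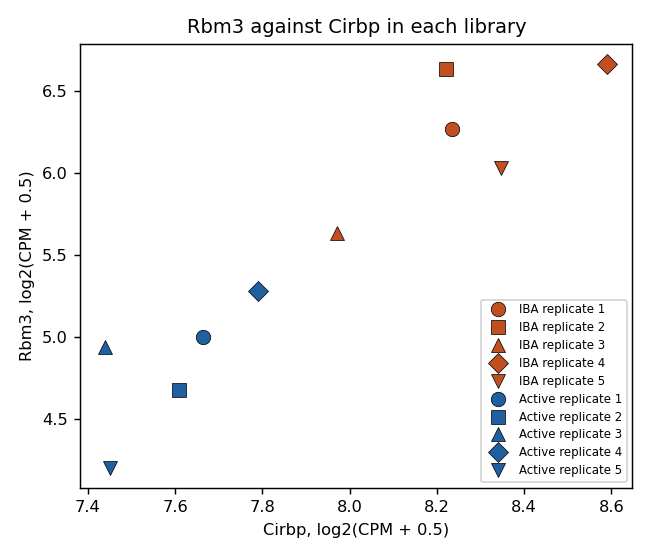
Rbm3 against Cirbp in each library, both as log2(CPM + 0.5), with colours for the states and marker shapes for replicate numbers. IBA libraries lie to the upper right of Active libraries. IBA replicate 3 and Active replicate 5, at 49.2 and 17.9 CPM of Rbm3, are the lowest of their states in that gene.

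The authors' deposited table gave the same direction, with a log2 fold change coded there as Active minus IBA. It listed -1.45 for Rbm3 with an FDR of 0.0378, one of 12 genes under an FDR of 0.05 and rank 6 of 25964 by p. The authors' deposited table listed -0.69 for Cirbp with an FDR of 0.0703, rank 26. On the reads recovered from the same libraries, edgeR gave log2 differences of 1.41 and 0.66 (edgeR adjusted p = 0.0427 and 0.0487) for Rbm3 and Cirbp. DESeq2 gave 1.41 and 0.66 (DESeq2 adjusted p = 4.08e-06 and 0.000187). Over all genes tested, edgeR called 0.369% and DESeq2 9.89%, with 3.86% higher and 6.03% lower in IBA. These analyses share the libraries and are no separate evidence.

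Other features of the libraries differed between the states in the direction of the 2 genes. The 79 genes named as cytosolic ribosomal proteins summed to 11373 to 19710 CPM in IBA and 7362 to 12548 CPM in Active libraries, and 77 of the 78 tested had a higher mean in IBA, where 54.1% of all genes did. None passed in limma or edgeR, where 0.401% and 0.369% of all genes did. At an unadjusted limma p under 0.05, 66 were higher and 1 lower, where 12.7% of all genes were higher and 11.1% lower. DESeq2 called 25 higher, where it called 3.86% of all genes higher. Among those with the smallest p were Rpl15 and Rpl10a, with log2 differences of 0.53 and 0.58. The score of this list, a library's log2 values centred per gene and averaged over the genes, was lowest in IBA replicate 3 (-0.17, other IBA libraries 0.28 to 0.62) and in Active replicate 5 (-0.85, other Active libraries -0.33 to -0.03). These are the libraries with the lowest Rbm3 of their states. Cirbp was also lowest in IBA replicate 3, but among Active libraries in replicate 3 (173 CPM), where the score was -0.03. With this score as a covariate the log2 difference was 0.86 for Rbm3 (unadjusted p = 0.00204, limma adjusted p = 0.462) and 0.54 for Cirbp (unadjusted p = 0.00500, limma adjusted p = 0.521).

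**Figure D3:**
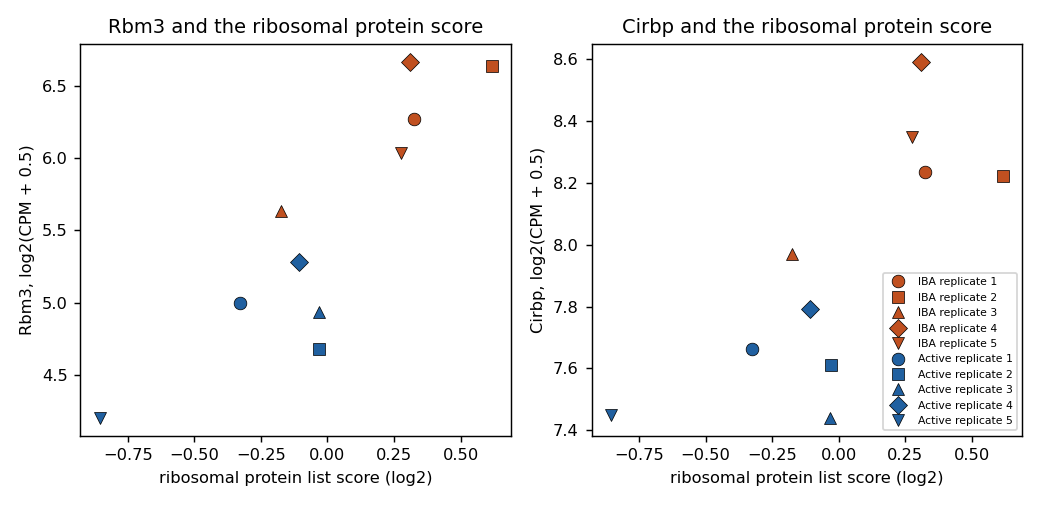
Rbm3 (left) and Cirbp (right) as log2(CPM + 0.5) against the score of the cytosolic ribosomal protein list in each library. The Active score runs from -0.85 to -0.03 and the IBA score from -0.17 to 0.62, and the IBA points lie higher in both genes.

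Summed marker levels of the organ, microglia and choroid plexus overlapped between the states, for microglia through Active replicate 5 only, while single markers differed. The 4 markers of the organ, the angiotensin receptor gene Agtr1, Etv1, Scn7a and Nos1, were detected and summed to 829 to 1390 CPM in IBA and 598 to 987 CPM in Active libraries. Most of this sum was Scn7a, at 984 ± 219 CPM in IBA and 653 ± 152 CPM in Active libraries (log2 difference 0.60, limma adjusted p = 0.112). Etv1, Agtr1 and Nos1 had log2 differences of 0.08, 0.31 and -0.12. The 7 neuron markers had scores of -0.28 to 0.29 in IBA and -0.37 to 0.15 in Active libraries. For 6 of the 7 the mean was higher in IBA, where 54.1% of all genes were, and the median log2 difference was 0.29. DESeq2 called 1 higher, Syt1 (log2 difference 0.39, limma adjusted p = 0.0843, DESeq2 adjusted p = 0.0316), where it called 3.86% of all genes higher. The 8 microglia markers summed to 181 to 235 CPM in IBA and 127 to 209 CPM in Active libraries. Only Active replicate 5, at 209 CPM, lay in the IBA range, and the other Active libraries were at 127 to 167 CPM. Of the 7 microglia markers tested, 2 rose in limma, P2ry12 and Tyrobp, where 0.22% of all genes did, and 5 did not pass. P2ry12 lost its call in 10 of 26 alternative settings of the analysis. The mean was higher in IBA for 5 of the 7, while C1qb and C1qa had log2 differences of -0.37 and -0.16. At an unadjusted limma p under 0.05, 4 of the 7 were higher, where 12.7% of all genes were. DESeq2 called 3 higher, where it called 3.86% of all genes higher, and the median log2 difference of the 7 was 0.57. Foxj1, an ependymal marker, was at 9.96 ± 6.54 CPM in IBA and 34.9 ± 13.8 CPM in Active libraries (log2 difference -2.06, limma adjusted p = 0.0761, DESeq2 adjusted p = 0.0363). Aldh1l1, an astrocyte marker, was at 9.46 ± 4.86 CPM in IBA and 28.7 ± 19.8 CPM in Active libraries (log2 difference -1.47, limma adjusted p = 0.0819, DESeq2 adjusted p = 0.00462). Foxj1 and Aldh1l1 were named after their values were seen, and the rest of their lists differed less. Of the 5 ependymal markers tested, 2 had a higher mean in IBA. Ccdc153, Dnah11, Rsph1 and Tmem212 had log2 differences of 0.17, 0.07, -0.22 and -0.39. Of the 4 astrocyte markers tested, 1 had a higher mean in IBA, Aqp4 (log2 difference 0.44). Gfap and Slc1a3 had log2 differences of -0.13 and -0.05. The part of these markers in the differences of Rbm3 and Cirbp was not tested. Choroid plexus markers summed to 429 to 2603 CPM in IBA and 504 to 12206 CPM in Active libraries, the last in Active replicate 4, which was also the Active library highest in Rbm3 and Cirbp. Without Active replicate 4 the differences were 1.54 for Rbm3 and 0.73 for Cirbp, with limma adjusted p = 0.0293 and 0.0436. With the choroid plexus score as a covariate they were 1.47 and 0.70. None of the marker lists had a measured member at 0 in every library. In tissue RNA, a change in the share of a cell type and a change in RNA per cell cannot be told apart.

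The call of both genes depended on single libraries, and their direction was the same in every omission. Over the omission of each of the 10 libraries in turn, the log2 difference of Rbm3 was 1.27 to 1.58 and that of Cirbp 0.60 to 0.76. The adjusted p of Rbm3 stayed under the threshold in 4 omissions and that of Cirbp in 3, with a range of 0.0267 to 0.0903 for Rbm3 and 0.0372 to 0.0966 for Cirbp in limma. The unadjusted p was at most 0.000141 for Rbm3 and 0.000381 for Cirbp. Rbm3 lost its call without IBA replicate 1, 2 or 4 or Active replicate 1, 2 or 5 (log2 differences of 1.42, 1.33, 1.32, 1.47, 1.39 and 1.27). Cirbp lost its call without the same libraries (0.69, 0.70, 0.60, 0.70, 0.69 and 0.65) and without Active replicate 3 (0.64).

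**Figure D4:**
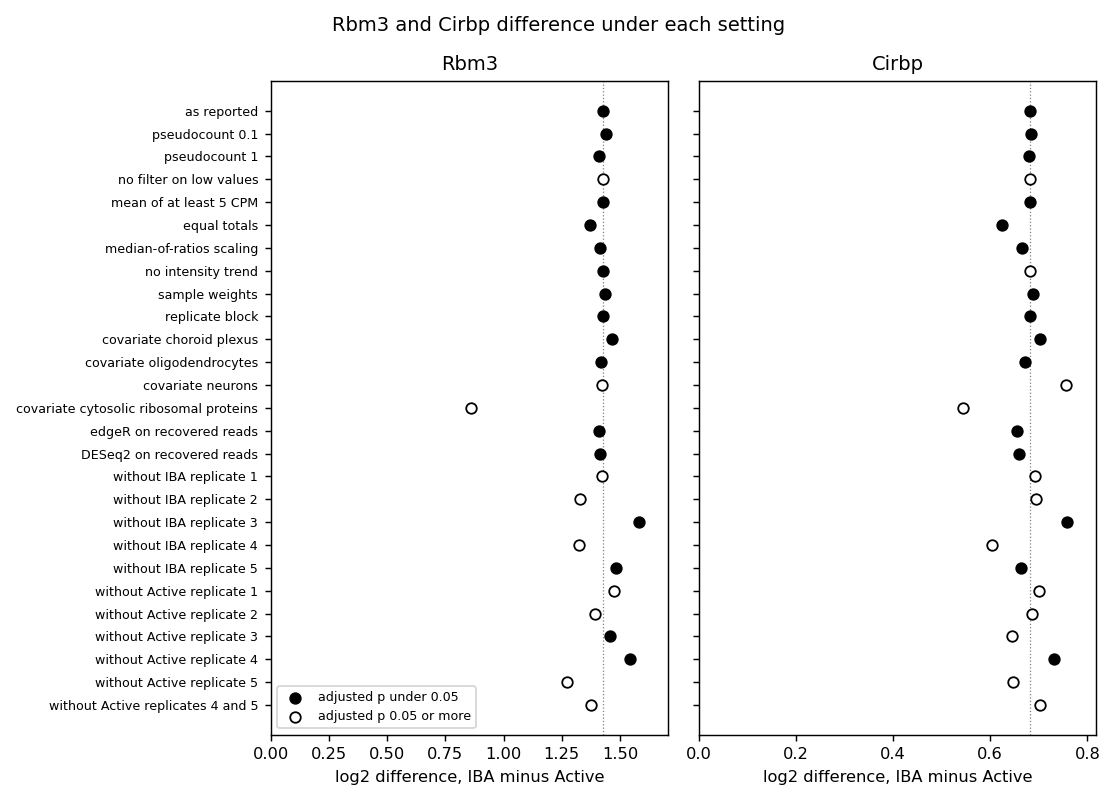
Log2 difference of Rbm3 (left) and Cirbp (right), IBA minus Active, under each setting. Filled points have an adjusted p under 0.05 and open points do not, and the dotted line is the value as reported, 1.43 and 0.68. The lowest value of each gene, 0.86 and 0.54, was that with the ribosomal protein score as a covariate.

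Other RNA-binding proteins of similar build did not rise with Rbm3 and Cirbp past the threshold. The list held 12 measured genes for proteins with an RNA recognition motif and a glycine-rich tail, the heterogeneous nuclear ribonucleoprotein group among them. Of these, 0 passed in limma or edgeR, where 0.401% and 0.369% of all genes did, so a count of 0 does not set this list apart. At an unadjusted p under 0.05, 2 were lower and 0 higher in limma, where 11.1% of all genes were lower and 12.7% higher. DESeq2 called 1 lower, where it called 6.03% of all genes lower. The median log2 difference of the 12 was -0.08, against 0.03 over all genes tested. Hnrnpa0, which binds AU-rich messages, was at 19.6 ± 1.44 CPM in IBA and 29.8 ± 6.33 CPM in Active libraries, a log2 difference of -0.57 (limma adjusted p = 0.0684, DESeq2 adjusted p = 0.00420). Rbmx, the RNA-binding protein encoded on the X chromosome in mammals and a close relative of RBM3 in sequence, was at 335.9 CPM in IBA and 344.9 CPM in Active libraries, with a log2 difference of -0.03 (95% interval -0.29 to 0.22). It was named after its value was seen.

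No other gene that carries the RBM name passed in limma or edgeR. Of all genes tested, 0.401% passed in limma and 0.369% in edgeR, so a count of 0 does not set this list apart. Of 38 in the table other than Rbm3, 35 were tested and 0 passed, with 5 higher and 4 lower at an unadjusted limma p under 0.05, where 12.7% of all genes were higher and 11.1% lower. DESeq2 called 1 higher and 2 lower, where it called 3.86% of all genes higher and 6.03% lower. The median log2 difference was -0.0032, and the range of -0.60 to 0.68 lay below the value of Rbm3. Rbm42 and Rbm10, an RNA-binding protein of splicing, had log2 differences of -0.60 and -0.52 (limma adjusted p = 0.0672 and 0.0753). Rbm8a, a core protein of the exon junction complex, had one of 0.36 (limma adjusted p = 0.0938).

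Cold shock domain proteins bind RNA through another fold. Of 7 measured, 4 were tested and 0 passed in limma or edgeR, where 0.401% and 0.369% of all genes did. At an unadjusted limma p under 0.05, 1 was higher and 1 lower, where 12.7% of all genes were higher and 11.1% lower. DESeq2 called 1 lower, where it called 6.03% of all genes lower. This was Csdc2, which was at 19.7 ± 5.67 CPM in IBA and 33.6 ± 10.5 CPM in Active libraries (log2 difference -0.75, limma adjusted p = 0.0819, DESeq2 adjusted p = 0.0146). Ybx1, a packaging protein of messenger RNA, was at 24.4 ± 3.20 CPM in IBA and 18.5 ± 2.43 CPM in Active libraries (log2 difference 0.39, limma adjusted p = 0.110).

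The genes described upstream of Rbm3 or Cirbp did not pass the test. In mouse brain, cooling raises RBM3 through TrkB, the BDNF receptor encoded by Ntrk2, and phospholipase C gamma 1, encoded by Plcg1. In human cells HNRNPH1 controls whether RBM3 messages keep an exon that marks them for decay. Of 7 such genes tested, 0 passed in limma or edgeR, where 0.401% and 0.369% of all genes did. At an unadjusted limma p under 0.05, 1 was higher and 1 lower, where 12.7% of all genes were higher and 11.1% lower. DESeq2 called 1 lower, Plcg1, where it called 6.03% of all genes lower.

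Bdnf was at 54.0, 72.5, 43.8, 31.4 and 61.2 CPM in IBA replicates 1 to 5, against 41.8, 54.0, 34.3, 15.8 and 7.86 CPM in Active replicates 1 to 5. The states overlapped, and the log2 difference was 1.00 (95% interval 0.04 to 1.95, limma adjusted p = 0.194). It was 0.60 without Active replicate 5, 0.24 without Active replicates 4 and 5, and 0.05 with the ribosomal protein score as a covariate. Plcg1 was at 36.3 ± 4.61 CPM in IBA and 50.5 ± 12.04 CPM in Active libraries, a log2 difference of -0.45 (limma adjusted p = 0.114, DESeq2 adjusted p = 0.0366). Ntrk2 was at 131.7 ± 13.0 CPM in IBA and 167.8 ± 52.7 CPM in Active libraries (log2 difference -0.30, limma adjusted p = 0.335). Hnrnph1 and Creb1 had differences of 0.09 (95% interval -0.25 to 0.42) and -0.0038 (95% interval -0.27 to 0.27), and were named after their values were seen.

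All 4 genes for proteins that act on CIRBP had a higher mean in IBA, where 54.1% of all genes did. Their median log2 difference was 0.13, and none passed the test. Tnpo1 encodes an import receptor of CIRBP, Prmt1 an arginine methyltransferase of its tail, and Gsk3b and Csnk2a1 kinases that phosphorylate it. None of the 4 passed in limma, edgeR or DESeq2, where 0.401%, 0.369% and 9.89% of all genes did. A count of 0 therefore does not set this list apart. At an unadjusted limma p under 0.05 there were 0, where 12.7% of all genes were higher and 11.1% lower. Prmt1, Csnk2a1 and Gsk3b had log2 differences of 0.18 (95% interval -0.09 to 0.45), 0.16 (-0.03 to 0.35) and 0.09 (-0.17 to 0.36).

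Among 8 transcripts described as bound or stabilised by RBM3 or CIRBP in other mammals, 7 were tested. None passed in limma or edgeR, where 0.401% and 0.369% of all genes did. At an unadjusted limma p under 0.05, 1 was higher, Txn, where 12.7% of all genes were. DESeq2 called Txn higher, where it called 3.86% of all genes higher. Txn encodes thioredoxin, a redox protein whose message CIRBP stabilises in stressed human cells. It was at 149, 186, 131, 130.5 and 135 CPM in IBA replicates 1 to 5, against 93.2, 113, 111, 103 and 65.1 CPM in Active replicates 1 to 5. The states did not overlap, and 3.59% of all genes had every IBA library above every Active library. The log2 difference was 0.61 (95% interval 0.27 to 0.95, limma adjusted p = 0.0728, DESeq2 adjusted p = 0.0174). Rpa2, a subunit of the single-stranded DNA binding protein, and Vegfa had differences of 0.29 and -0.26 (limma adjusted p = 0.261 and 0.498). Rtn3, the transcript that RBM3 acts on in mouse synapses, was at 242.6 CPM in IBA and 239 CPM in Active libraries, with a difference of 0.01 (95% interval -0.20 to 0.23). It was named after its value was seen.

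Of the receptors described for extracellular CIRBP, Tlr4 was tested and Ly96 lay under the filter. Tlr4 was at 82.6 ± 9.01 CPM in IBA and 65.4 ± 11.7 CPM in Active libraries, a log2 difference of 0.35 (95% interval 0.06 to 0.64, limma adjusted p = 0.148). It did not pass in limma, edgeR or DESeq2.

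Splicing factors and chaperones that respond to temperature in other mammals did not pass the test. Of 15 SR factors and CLK kinases, 0 passed in limma or edgeR, where 0.401% and 0.369% of all genes did. At an unadjusted limma p under 0.05, 1 was higher and 1 lower, where 12.7% of all genes were higher and 11.1% lower. The median log2 difference of the 15 was 0.06. DESeq2 called Srsf5 higher and Srsf4 lower, with limma differences of 0.46 and -0.80 (limma adjusted p = 0.0958 and 0.0644). Over all genes tested, DESeq2 called 3.86% higher and 6.03% lower. Of 14 heat shock proteins with Hsf1, 0 passed in limma or edgeR, 0 were higher and 9 lower at an unadjusted limma p under 0.05, where 11.1% of all genes were lower. DESeq2 called 4 of them lower, where it called 6.03% of all genes lower, and the median log2 difference was -0.33. The smallest p in that list were those of Hspa4, Dnaja1 and Hsph1, with log2 differences of -0.46, -0.59 and -1.10.

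**Figure D5:**
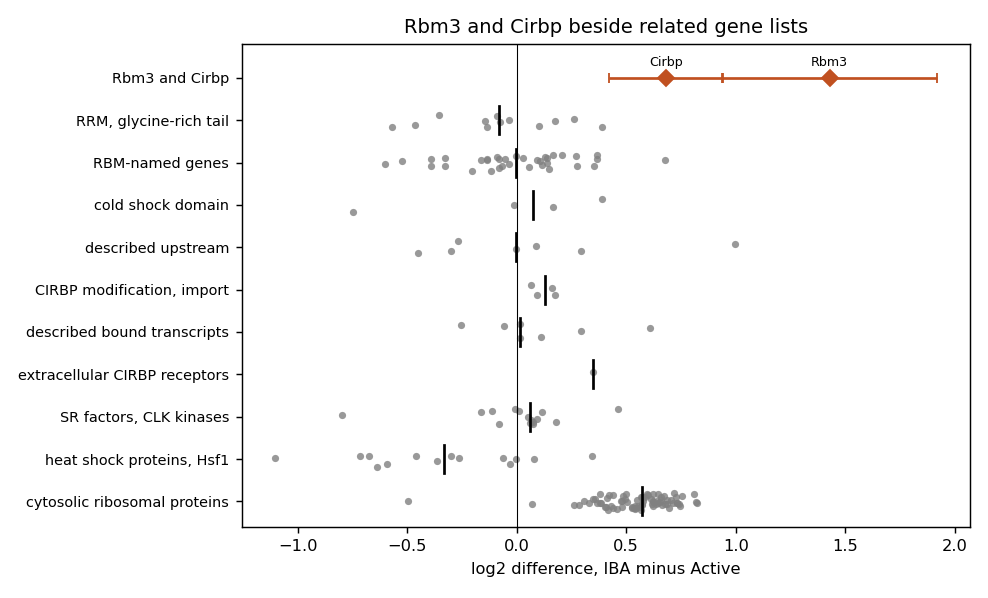
Log2 difference, IBA minus Active, of Rbm3 and Cirbp (diamonds with 95% intervals) and of every tested member of each list shown (grey points, jittered vertically), with a black line at each list's median. Ribosomal protein genes have a median of 0.57, heat shock proteins one of -0.33, and the other lists shown with more than 1 tested gene lie between -0.08 and 0.13.

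Genes with the pattern most like that of Rbm3 were ranked by Pearson's r of log2(CPM + 0.5) over the 10 libraries, among 12364 genes with a symbol and a mean of at least 2 CPM. This likeness includes the difference between the states and is given as a description. Sptlc1 (r = 0.97), Herc3 (0.96), Tanc2 (0.96) and P2ry12 (0.96) were the most alike, and Cirbp had rank 16 (0.94). Sptlc1, part of serine palmitoyltransferase, the entry enzyme of sphingolipid synthesis, averaged 214 ± 26.8 CPM in IBA and 117.3 ± 18.9 CPM in Active libraries. Herc3, a ubiquitin ligase, averaged 50.5 ± 6.21 and 29.1 ± 4.08 CPM in IBA and Active libraries. Both rose in limma, by log2 differences of 0.87 and 0.79 (limma adjusted p = 0.0347 each). Over the omission of each library in turn, Sptlc1 lost its call in 4 of 10 omissions (log2 differences of 0.76 to 0.93 over all 10) and Herc3 in 7 of 10 (0.71 to 0.86 over all 10). Both also lost it with no filter on low values, with the neuron or ribosomal protein score as a covariate, and without Active replicates 4 and 5. For Cirbp the most alike were Parp11 (r = 0.95), Rbm3 (0.94), Asb5 (0.93) and Bcl6 (0.93). Parp11, a mono-ADP-ribosyltransferase, averaged 17.5 ± 0.687 CPM in IBA and 15.7 ± 0.280 CPM in Active libraries (log2 difference 0.15, limma adjusted p = 0.351), so it followed the order of the libraries with a small difference. Bcl6, a transcriptional repressor, averaged 176 ± 41.3 CPM in IBA and 95.2 ± 21.7 CPM in Active libraries (log2 difference 0.89, limma adjusted p = 0.0603).

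The order of likeness changed when the state means were removed. By r of the deviations from the state means, Sat2 (0.95) and Srsf3 (0.94) were the most like Rbm3, and Nt5dc1 (0.95) and Fam107a (0.91) the most like Cirbp. None of the 4 passed the test between the states, with log2 differences of 0.16, -0.01, 0.24 and -0.19 and limma adjusted p = 0.541, 0.979, 0.459 and 0.519. Cirbp had rank 277 in likeness to Rbm3 by this measure, and Rbm3 rank 106 in likeness to Cirbp.

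None of the tested genes beside Rbm3 and Cirbp in the genome passed the threshold. The 3 protein-coding genes on either side were taken from the order in RefSeq assembly mIctTri1.hap1, a choice made after the values were seen. All 6 neighbours of Rbm3 were tested, with log2 differences of -0.46 to 0.04. Of these, 0 passed in limma or edgeR, where 0.401% and 0.369% of all genes did. At an unadjusted limma p under 0.05, 2 were lower, where 11.1% of all genes were. DESeq2 called 1 lower, where it called 6.03% of all genes lower. The nearest, Tbc1d25 and Wdr13, were at 35.2 ± 2.18 and 88.6 ± 9.22 CPM in IBA and at 38.4 ± 3.81 and 122.9 ± 17.8 CPM in Active libraries, with log2 differences of -0.12 and -0.46 (limma adjusted p = 0.473 and 0.0728). Of the 6 neighbours of Cirbp, 3 were tested, with log2 differences of -1.05 to -0.41. None of these passed in limma or edgeR, and all 3 were lower at an unadjusted limma p under 0.05, against the same 11.1%. DESeq2 called 1 lower, against the same 6.03%. Among them were Midn, the nearest on one side, and Efna2, an ephrin ligand, with differences of -0.41 and -1.05 (limma adjusted p = 0.179 and 0.0668). In that assembly 0 genes overlap Rbm3, and 1, Fam174c, overlaps Cirbp. Fam174c was not analysed here, and since the strand setting of the counting was not given, reads shared with it cannot be told apart from Cirbp reads.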

How the data were processed

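Normalised CPM of 10 libraries were analysed, 5 IBA and 5 Active, grouped by their titles. The tools named in the submitters' processing notes were STAR 2.7.7a, Trimmomatic 0.39, Subread 2.0.1 with featureCounts, R 4.2.1 and edgeR 3.38.4. Genome build, gene annotation and strandedness of counting are not given in the sources used here. Values deposited by the authors are normalised CPM per the file headers, a signal whose column sums differ from 1000000 because of scaling factors. Per the file headers, the table also holds the authors' log2 fold change, average log2 CPM, F statistic (a score), p-value and FDR. The deposited groups were called biological replicates by the design text.

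In every library 100% of values were whole multiples of 1 read within 0.01. The main test was limma 3.58.1 (R 4.3.3), two-sided and with an intensity trend, on log2(CPM + 0.5) of the 15445 genes averaging at least 1 CPM, adjusted by Benjamini-Hochberg, and called under 0.05. On the recovered reads edgeR 4.0.16 called 57 genes (0.369%) and DESeq2 1.42.0 called 1527 (9.89%), against 62 in limma. As a check of the code, the fit was also run on simulated counts with known changes, which does not test the calls reported here. Intervals are at 95% and do not cover choices of processing. The members, lists and tests were chosen with earlier results of these data known, so counts over lists are descriptions. Named list members are those called or, where none was, the 3 with the smallest p, of which some are not reported here. Symbols were matched without regard to case, and 21837 of 25964 names matched the list of assembly mIctTri1.hap1, used for names and neighbours only. Of the listed genes, Rbmxl1, Ybx3 and Trem1 were not analysed here, nor were the markers Gja1, S100b, Folr1 and Pifo.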

Additional observations from a re-analysis of the deposited data

Results flagged for a closer look

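Neither Rbm3 nor Cirbp, nor their log2 ratio, had a library set far apart from the others of its state. Among the 92 groups of 5 libraries examined for the named genes and this ratio, 4 held a library whose gap to its nearest neighbour passed Dixon's 95% critical value, where chance gives about 1 in 20 groups. Sptlc1, the gene most like Rbm3, was at 83.8 CPM in Active replicate 5, against 122 to 129.5 CPM in the other Active libraries. Srsf4 was at 71.7 CPM in Active replicate 5 and at 42.8 to 49.8 CPM in the other Active libraries. Csdc2 was at 29.7 CPM in IBA replicate 5 and at 15.98 to 18.2 CPM in the other IBA libraries. Fam107a was at 361 CPM in Active replicate 4 and at 206 to 239.6 CPM in the other Active libraries.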

How the results depend on the processing

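The direction of Rbm3, Cirbp and their ratio held in all alternatives run, 26 for each gene and 15 for the ratio. The adjusted p stayed under the threshold in 16 alternatives for Rbm3 and 14 for Cirbp. Leaving out each library in turn gave 1.27 to 1.58 for Rbm3, 0.60 to 0.76 for Cirbp, 0.63 to 0.82 for the log2 ratio and 4 to 245 genes called. Calls were lost with no filter on low values (Rbm3 1.43, Cirbp 0.68), with the neuron score (1.42, 0.76) or the ribosomal protein score (0.86, 0.54) as a covariate, and without Active replicates 4 and 5 (1.38, 0.70). Cirbp also lost its call with no intensity trend (0.68). The genes called numbered 62 as reported, 6 with no filter, 121 with sample weights, 1527 in DESeq2, 2 with the neuron score, 0 with the ribosomal protein score (1220 at an unadjusted p under 0.05 in limma) and 0 without Active replicates 4 and 5 (2173 in limma). The cause was not tested. Without the filter, more genes were tested.

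Same-numbered libraries correlated by -0.17 to 0.20 in their deviations from the state means, with 3 of the 5 pairs over 0.1. As not every pair was, and not every library correlated best with its own number, the numbers were not taken as pairs. With the replicate number as a block, limma called 231 genes, Rbm3 (1.43) and Cirbp (0.68) kept their calls, and Csdc2, Hsph1, Bcl6 and Efna2 came under the threshold (limma adjusted p = 0.0407, 0.0407, 0.0432 and 0.0472). The ratio differed by 0.75 with an exact permutation p of 0.0625, the smallest that 5 pairs allow. Scaling to equal totals moved the median of all genes from 0.03 to -0.02, with Rbm3 at 1.37 and Cirbp at 0.62, and the share of calls higher in IBA from 54.8% to 36.8%.

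Genes that were not called changed sign as follows. With the ribosomal protein score, Clk4 was at -0.030, Nt5dc1 at -0.092, Ntrk2 at 0.15, Sat2 at -0.18, Vegfa at 0.13 and Tbc1d25 at 0.026. Without Active replicates 4 and 5, Clk4 was at -0.0049 and Vegfa at 0.054. Srsf3, at -0.0071 as reported, was at 0.010 with the choroid plexus score and at -0.098 to 0.080 over the omission of single libraries.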
